A study of Mus musculus with 36 samples.

Results

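The nuclear genes for the subunits of the respiratory chain and ATP synthase were followed in mouse liver after an injection of bacterial lipopolysaccharide (LPS), a cell-wall component that sets off systemic inflammation. Members were the protein-coding genes whose mouse symbol starts with Ndufa, Ndufb, Ndufc, Ndufs or Ndufv and a number, Uqcr, Atp5 or Cox4 to Cox8, together with Sdha to Sdhd and Cyc1. The rule uses names and no measured value, and it found 85 of the 34829 genes in the deposited table. They comprised 35 genes of complex I, 4 of complex II, 9 of complex III, 18 of complex IV, 16 of complex V and 3 others. Ndufa4 was placed with complex IV, where its protein is now assigned. Testing required an average signal of 5 or more across the libraries, which 8702 genes met, 76 of the 85 members among them. Processed pseudogenes that carry a matching name, 11 in number, are not members.

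All mice were of the strain C57BL6/J, and the times count from the LPS injection. Livers were taken at 0, 4, 12 and 24 h at an ambient temperature of 22 °C (room temperature, RT) or 30 °C (thermoneutrality, TN). The successive times had 4, 4, 5 and 5 libraries at 22 °C and 5, 4, 4 and 5 at 30 °C, making 36 in all. The sources used here do not give the sex and age of the mice or the LPS dose. They give no LPS-free group at the later times either, so the effect of LPS and other effects of elapsed time cannot be told apart. The labels do not say that each library came from its own mouse, so the p-values reflect how much these libraries vary, which may be technical in part.

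Oxidative phosphorylation takes place in the inner mitochondrial membrane. Complexes I and II pass electrons from NADH and succinate to ubiquinone, complex III passes them on to cytochrome c, and complex IV passes them to oxygen. Complexes I, III and IV pump protons, and complex V, the ATP synthase, uses the returning protons to make ATP. Most subunits are encoded in the nucleus and imported, and a small core of complexes I, III, IV and V is encoded by mitochondrial DNA, so that the levels of both sets bear on how the complexes are built. The liver relies on this pathway for gluconeogenesis and urea synthesis, which hepatocytes carry out.

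Libraries held between 557000 and 2744000 estimated reads (median 1009000), and a count of 3 reads corresponded to a signal of 1.33 to 5.05. All 10 hepatocyte markers were above 0 in every group of these samples labelled liver. Reads of CEL-Seq2 come from the 3′ ends of transcripts. Of the 76 tested members, 37 share no stretch of 31 bases in their last 300 bases with another gene, and 6 share over 50% of them (Atp5h, Cox7c, Atp5l, Ndufs3, Ndufs5 and Atp5g2), so that reads of these 6 could be split between near-identical copies. Ndufs3 and Uqcrc1 had values identical to those of a second identifier without a symbol. A pair of libraries stood apart. The 30 °C 0 h replicate 3, the shallowest with 557000 reads, had member genes on average 0.53 lower than the 22 °C 0 h mean on the log2 scale, and the 30 °C 4 h replicate 4 had them 0.40 lower. Counts of members without these libraries are given where leaving 1 or both out moved them by over 1.5 times.

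Promoter sequence of the members was searched for letters that known factors recognise. Stretches of a few genes with unlike courses after LPS are printed, and whether the letters go with the course was not tested. RefSeq windows of the 250 bases before the start site (GRCm38.p6) were found for 62 of the 76 tested members. The letters GCGCANGCG, recognised by the nuclear respiratory factor NRF1, were present on either strand in 14 of the 62 (22.6%), against 5.86% of all 27025 genes with a window. CCGGAAG, recognised by GABP (nuclear respiratory factor 2), was present in 12 (19.4%) against 7.83%. TGACGTCA, the cAMP response element, was present in 4 (6.45%) against 1.77%. TCAAGGTCA, for the oestrogen-related receptor ERRα, was present in 1 member (1.61%) against 0.422%. AAGATGGC, for YY1, was also present in 1 (1.61%), against 1.83%. A match is a description of letters and not evidence of binding. CCGGAAG and AAGATGGC can overlap, since the first ends and the second begins with AAG. The next lines show the exon-free stretches of these windows, 5′ to 3′ on the gene's strand, with matches in capitals. They belong to Uqcr11, which was lower at 12 h at both temperatures (chr10:80406831-80407071, minus strand, CCGGAAG), Sdhb, which was still below its 0 h level at 24 h at both (chr4:140961021-140961202, plus strand, no match), Sdhd, which ended higher at 30 °C (chr9:50603850-50603909, minus strand, CCGGAAG read on the opposite strand; its window also holds the NRF1 letters, upstream of the printed stretch in an exon of a neighbouring gene), and Atp5g3, a c-subunit gene for which no fall from 0 h passed the test (chr2:73911327-73911576, minus strand, the ERRα letters on the opposite strand).

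Uqcr11: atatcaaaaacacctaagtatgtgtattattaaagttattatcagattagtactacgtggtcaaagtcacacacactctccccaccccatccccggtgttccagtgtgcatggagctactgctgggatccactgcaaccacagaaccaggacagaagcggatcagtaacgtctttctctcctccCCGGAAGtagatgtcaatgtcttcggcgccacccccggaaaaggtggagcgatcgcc

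Sdhb: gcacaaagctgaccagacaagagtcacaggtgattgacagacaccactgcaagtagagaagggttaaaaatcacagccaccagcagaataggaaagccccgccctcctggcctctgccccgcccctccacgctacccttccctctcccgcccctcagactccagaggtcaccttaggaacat

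Sdhd: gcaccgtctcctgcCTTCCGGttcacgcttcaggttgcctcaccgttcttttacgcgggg

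Atp5g3: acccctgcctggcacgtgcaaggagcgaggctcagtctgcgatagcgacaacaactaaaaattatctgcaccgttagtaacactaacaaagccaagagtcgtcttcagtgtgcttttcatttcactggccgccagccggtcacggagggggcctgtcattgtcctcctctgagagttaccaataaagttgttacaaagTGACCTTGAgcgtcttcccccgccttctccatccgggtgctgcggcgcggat

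Before the comparisons, the levels of the members set the scale. Levels of different genes are compared on the second deposited column, which is per length, and the first column is used for each gene against itself. By the per-length column averaged over all libraries, Cox6c (2995), a small subunit of complex IV, Uqcrq (2574), of complex III, and Atp5k (2066), of complex V, stood highest. Atp5g3 (1260), Cox7c (1244) and Cox8a (1168) followed. Lowest among the tested members were Ndufs8 (16.9), an iron-sulphur subunit of complex I, Uqcrc1 (19.1), a core protein of complex III, Ndufa11 (32.5) and Sdhd (35.7), a membrane anchor of complex II. Since reads come from the 3′ ends, division by length raises short transcripts relative to long ones. In the first column, which is not divided by length, the means of these genes were 1938 for Cox6c, 1079 for Uqcrq, 997 for Atp5g3, 663 for Atp5k and 98.1 for Ndufa11.

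Tissue-specific isoforms followed the liver pattern. Cox4i2, Cox7b2, Cox8b and Cox8c were listed at 0 in all 36 libraries. Cox7a2, the form of most tissues, had a signal of 96.2 ± 11.8 (SD, n = 4) at 22 °C 0 h, and Cox7a1, its heart and muscle counterpart, had 1.97 ± 1.51. Cox6a1 had 299 ± 21.4 and its muscle counterpart Cox6a2 had 1.02 ± 1.34. Cox6a2 (mean over all libraries 0.386), Cox6b2 (0.445), Ndufa4l2 (0.663), Cox7a1 (2.50) and Atp5s (4.00) lay under the minimum for testing, and the tested members nearest to it were Uqcrc1 (10.9) and Ndufs8 (17.2). The 6 markers of skeletal muscle and heart summed to at most 1.70 in every library outside the 30 °C 4 h group, where 1 library reached 13.98, and Mb was at 0 in every library.

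As a whole the members took 2.07% ± 0.190 (SD, n = 4) of all signal at 22 °C 0 h and 2.13% ± 0.253 (n = 5) at 30 °C 0 h. At 22 °C the share was 1.72% ± 0.118 at 4 h (n = 4), 1.47% ± 0.115 at 12 h (n = 5) and 1.59% ± 0.126 at 24 h (n = 5). At 30 °C it was 1.58% ± 0.423 at 4 h (n = 4), 1.51% ± 0.0655 at 12 h (n = 4) and 2.05% ± 0.130 at 24 h (n = 5). Every library at 12 h lay below every library at 0 h and 4 h in the mean log2 level of the tested members, apart from the pair that stood apart. At 24 h the temperatures separated, with the 22 °C libraries between −0.65 and −0.23 and the 30 °C libraries between −0.17 and 0.18. In bulk tissue, fewer cells of a type and less RNA per cell cannot be told apart.

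**Figure D1:**
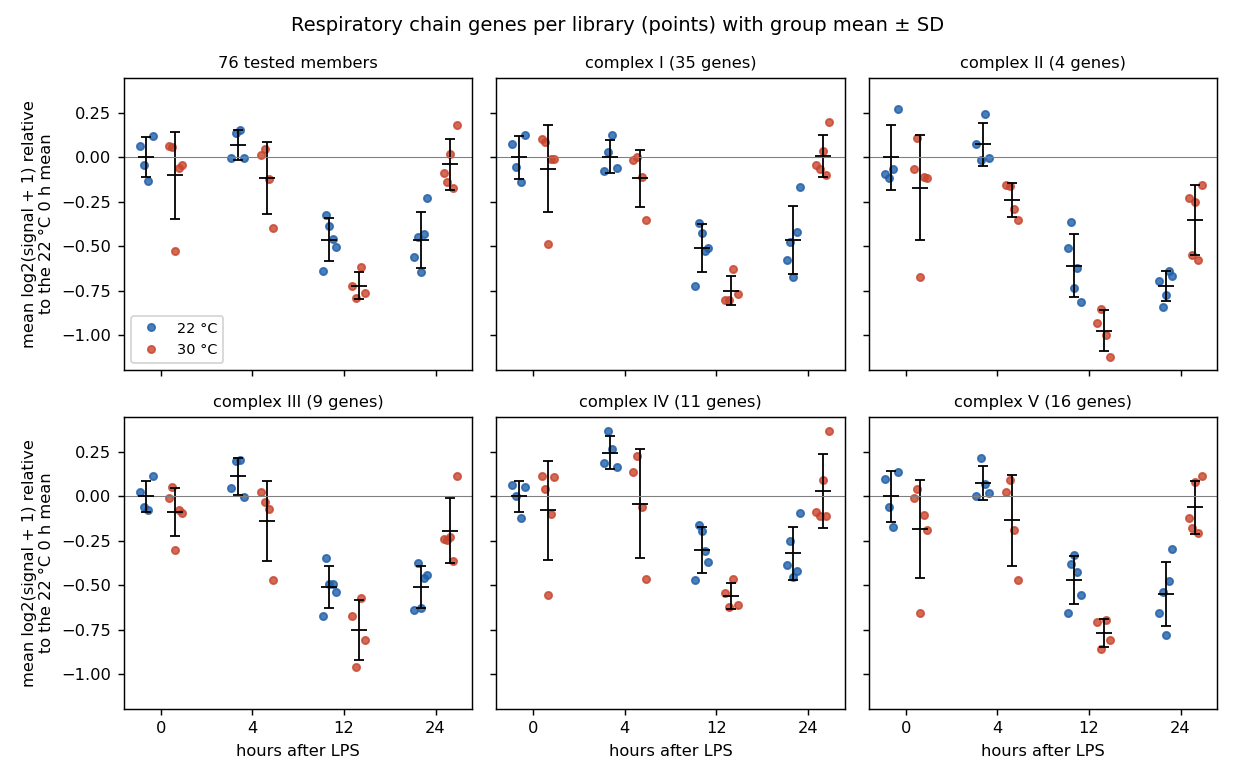
Mean log2(signal + 1) of the tested members in each library, relative to the mean of the 22 °C 0 h libraries (vertical axis), against hours after LPS (horizontal axis). The first panel holds all 76 tested members, Cox7a2l included, and the others hold complexes I to V. Points are libraries, bars are the group mean ± SD, blue is 22 °C and red is 30 °C. At 24 h the 5 libraries at 30 °C sit above the 5 at 22 °C for the members together.

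Few members differed from 0 h at 4 h after LPS. At 22 °C 2 of 76 members were higher and 0 lower by limma with Benjamini-Hochberg adjustment over all 8702 genes, where 15.8% of all genes were higher and 13.6% lower, and 8 members had an unadjusted p under 0.05. They were Ndufs3, a core subunit in the peripheral arm of complex I (log2 difference 0.57 ± 0.18 (SE), adjusted p = 0.0146), and Cox7a2 (0.77). At 30 °C 2 members were higher and 4 lower, against 17.8% and 14.6% of all genes. Cox7b (0.75) and Ndufa1 (0.53) rose, and Ndufa5, a peripheral-arm subunit of complex I, fell (−0.64), as did Ndufa10, Ndufa6 and Ndufa2, which are named after their values were seen. The median difference of the members was 0.07 at 22 °C and −0.03 at 30 °C, beside −0.10 and −0.04 for all genes. Upper-quartile scaling gave 0 higher and 1 lower at 22 °C and 1 higher and 10 lower at 30 °C, so no direction is given for the members at 4 h. Cox7b (0.58, adjusted p = 0.0573) and Ndufa5 (−0.53, adjusted p = 0.0947) lost their calls without the 30 °C 4 h replicate 4, and Ndufa1 (0.34, adjusted p = 0.13) without the 30 °C 0 h replicate 3. Without the former the count of calls at 30 °C was 3, and without both libraries that stood apart it was 2.

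By 12 h subunit genes of every complex were lower at both temperatures. At 22 °C 42 of 76 members were lower and 1 higher, where 20.6% of all genes were lower and 20.7% higher. The median difference was −0.45 on the log2 scale, a fall by 26.8%, beside −0.03 for all genes. At 30 °C 50 members were lower and 1 higher, where 18.9% of all genes were lower and 19.3% higher, with a median of −0.67 (a fall by 37.1%) beside 0.01. The same 38 members were lower at both temperatures, which is 90.5% of the 22 °C list and 76% of the 30 °C list. The 0 h and 12 h libraries did not overlap, with 12 h lower, for 31 members at 22 °C and 39 at 30 °C, where 16.6% and 16.4% of all genes showed this.

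Ndufs7 (chr10:80249121-80256794), a core iron-sulphur subunit of complex I next to the ubiquinone site, had the largest fall of complex I at 22 °C. Gene positions here and after are those of GENCODE M21 on GRCm38. Its signal was 43.1, 46.5, 46.0 and 51.0 at 0 h and 12.0, 17.2, 22.4, 14.6 and 18.6 at 12 h. At 30 °C it was 50.8, 83.5, 46.8, 34.8 and 45.2 at 0 h and 13.1, 19.2, 17.0 and 31.7 at 12 h. The groups did not overlap at either temperature. The log2 difference was −1.44 ± 0.24 (adjusted p = 1.21e-05) at 22 °C and −1.33 (adjusted p = 3.4e-05) at 30 °C.

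Uqcr11, a small subunit of complex III, fell at both temperatures. Its signal went from 97.4, 120, 124 and 136 to 39.1, 62.6, 47.3, 70.4 and 39.9 at 22 °C. At 30 °C it went from 93.8, 120, 55.3, 109 and 99.2 to 52.6, 34.1, 48.6 and 31.6. All 12 h libraries were below all 0 h libraries of the same temperature. The log2 differences were −1.22 ± 0.24 (adjusted p = 0.000111) and −1.16 (adjusted p = 0.000189).

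Cox6b1 (chr7:30616861-30626151), a subunit on the outer face of complex IV, had the largest fall of its complex at 30 °C. Its signal was 216, 329, 385, 232 and 272 at 0 h and 110, 130, 126 and 99.4 at 12 h, without overlap (−1.27 ± 0.20, adjusted p = 3.92e-06). At 22 °C it was 310, 213, 190 and 253 at 0 h and 249, 202, 147, 135 and 188 at 12 h, the groups overlapped, and the difference of −0.40 missed the threshold (adjusted p = 0.111). The difference between the temperatures in this change was not past the threshold for any member at 12 h (0 of 76 by limma, with 6 at an unadjusted p under 0.05), where 0.0689% of all genes were higher and 0.207% lower.

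Among the other falls at 30 °C, Ndufb5, a membrane-arm subunit of complex I, had −1.40, Sdhb, the iron-sulphur subunit of complex II, had −1.25, and Atp5d, a subunit of the central stalk of ATP synthase, had −1.36. All parts of complex I took part. The Ndufb genes of the membrane arm were lower in 7 of 10 (median −0.92), the core subunits in 5 of 7 (−0.67) and the other accessory subunits in 12 of 18 (−0.72). Complex III was lower in 7 of 9, complex II in 3 of 4 and complex IV in 7 of 11, the last with the smallest median (−0.41). Complex V was lower in 9 of 16 (−0.78). Of all genes 18.9% were lower.

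Within complex V none of the 3 genes for the c subunit passed the test against 0 h at 12 h. The c subunit forms the rotating ring in the membrane, and Atp5g1, Atp5g2 and Atp5g3 encode the same mature protein. At 12 h at 30 °C 0 of 3 were lower (median −0.01), while 4 of 5 genes of the catalytic head and central stalk (−0.83) and 3 of 4 of the peripheral stalk (−0.93) were. Atp5g3, the most abundant of the c-subunit genes by the per-length column, had a signal of 823, 1002, 345, 865 and 843 at 0 h at 30 °C and 876, 766, 852 and 857 at 12 h (0.20, adjusted p = 0.459). At 22 °C it had 1272, 1049, 818 and 1079 at 0 h and 848, 937, 1037, 908 and 694 at 12 h (−0.25, adjusted p = 0.323). The groups overlapped at both temperatures. Without the 30 °C 0 h replicate 3, the library at 345, the 12 h difference at 30 °C was −0.07 for Atp5g3 (adjusted p = 0.725), so that its sign turned, −0.21 for Atp5g2 and −0.36 for Atp5g1 (adjusted p = 0.142). The median of the 3 was then −0.21, with 0 lower by limma, while 5 of 5 genes of the head and central stalk were lower (−0.90). Between 4 h and 12 h at 30 °C Atp5g1 fell (−0.63, adjusted p = 0.0202), a call that upper-quartile scaling, the groups alone and 4 of the left-out libraries ended. The difference between the c-subunit genes and the rest of the complex was not tested.

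**Figure D2:**
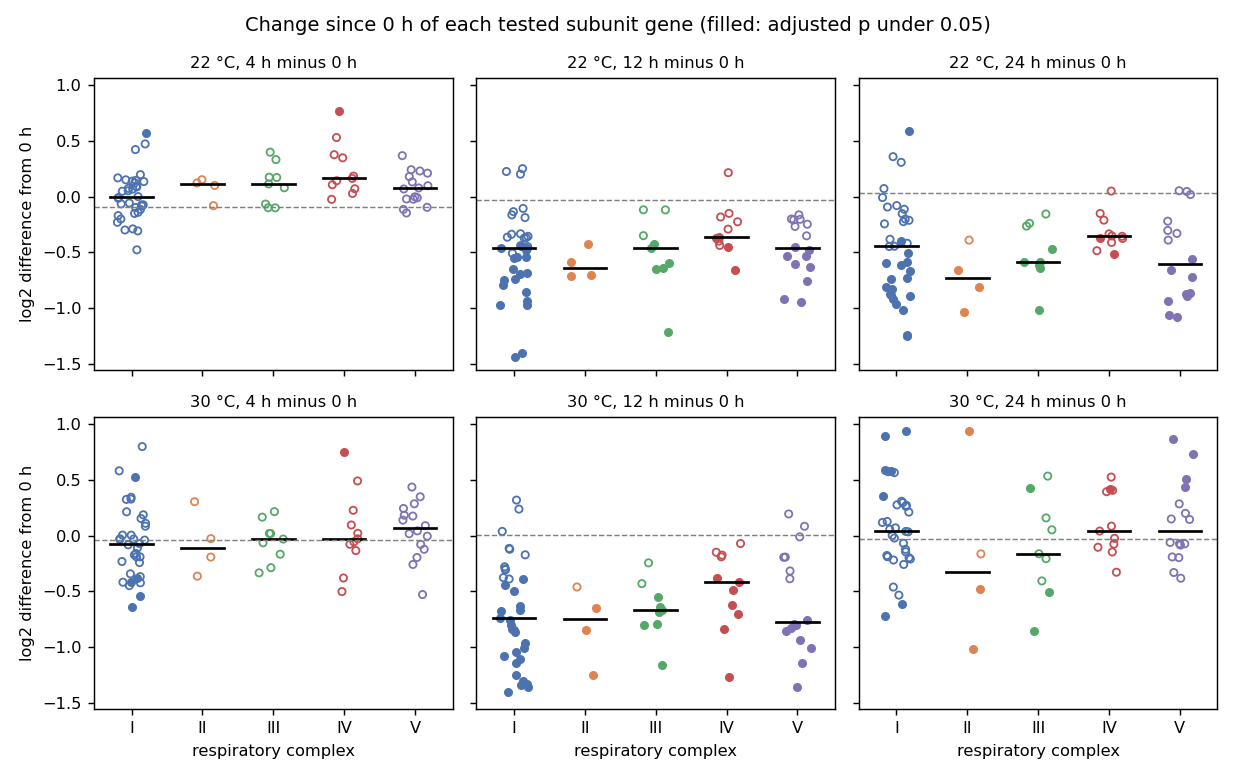
Log2 difference from 0 h of each tested subunit gene (vertical axis) by complex (horizontal axis), at 4 h, 12 h and 24 h at 22 °C (upper row) and 30 °C (lower row). Points are genes, filled where the limma adjusted p was under 0.05, black bars are medians by complex, and the dashed line is the median of all genes tested. At 12 h the points of each complex lie mostly below 0 at both temperatures, and at 24 h they do so at 22 °C while at 30 °C they lie on both sides.

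The 1 member that rose at 12 h was the same at both temperatures. Cox7a2l (SCAF1, chr17:83501918-83517330) is no subunit of a single complex. In strains with its full-length form the protein joins complexes III and IV in supercomplexes, and C57BL6/J mice are known to carry a shortened form that does not do so in the usual way. Its signal was 82.9, 108, 61.8 and 68.9 at 0 h and 117, 129, 115, 106 and 107 at 12 h at 22 °C, and 97.7, 57.7, 36.6, 66.5 and 87.0 against 104, 112, 136 and 107 at 30 °C. The log2 difference was 0.54 ± 0.20 (adjusted p = 0.027) at 22 °C, where leaving out any of 3 libraries ended the call, and 0.79 (adjusted p = 0.00139) at 30 °C. At 24 h it was 140, 143, 129, 135 and 136 at 22 °C (0.79 ± 0.20, adjusted p = 0.00171) and 146, 99.6, 129, 113 and 120 at 30 °C (0.87 ± 0.19, adjusted p = 0.000404). All 24 h libraries were above all 0 h libraries of the same temperature.

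By the test of each gene, the falls came between 4 h and 12 h. The members' share of all signal was already lower at 4 h than at 0 h. At 22 °C it was 2.07%, 1.72% and 1.47% at 0, 4 and 12 h. At 30 °C it was 2.13%, 1.58% ± 0.423 and 1.51%. Between 4 h and 12 h 41 members fell and 0 rose at 22 °C (14.4% of all genes lower, 11.9% higher), and 47 fell and 0 rose at 30 °C (17.9% lower, 12.3% higher). With upper-quartile scaling the falls were 26 and 21, with 1 rise each. Without both libraries that stood apart, 56 members were called between 4 h and 12 h at 30 °C. Complex I members with the largest falls were Ndufa6 at 22 °C (−1.12) and Ndufa13 at 30 °C (−1.58), both accessory subunits.

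At 24 h the members were still lower at 22 °C. There 38 of 76 were lower and 2 higher than at 0 h, where 18% of all genes were lower and 19% higher, with a median of −0.45 beside 0.03 for all genes. From 12 h to 24 h at 22 °C 1 member rose and 3 fell (4.02% of all genes higher, 6.6% lower; 1 and 1 with upper-quartile scaling), and the median change was 0.04. The members that fell further included Atp5c1 (−0.55), the gamma subunit that turns inside the ATP synthase head, and Ndufv3 (−0.68), and Ndufa8 rose (0.80). The libraries at 0 h and 24 h did not overlap, with 24 h lower, for 34 members, against 14.5% of all genes.

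At 30 °C the median of the members was back near the 0 h level by 24 h, with some members higher and some lower. In this comparison 13 members were higher and 6 lower than at 0 h, where 15.3% of all genes were higher and 14.4% lower, and the median was 0.04. With upper-quartile scaling 15 were higher and 3 lower. Without the 30 °C 0 h replicate 3, 6 were higher and 6 lower. The groups did not overlap for 4 members that were higher and 5 that were lower, against 9.87% and 10.3% of all genes. From 12 h to 24 h at 30 °C 51 members rose and 0 fell (11.6% of all genes higher, 9.52% lower), with a median of 0.68 beside −0.05 for all genes. Libraries at 24 h were all above those at 12 h for 53 members, against 11.7% of all genes.

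At 24 h the members differed between the temperatures, while at earlier times 2 or fewer passed the test. At 0 h and at 4 h 0 of 76 members differed between 30 °C and 22 °C by limma, with 8 and 7 at an unadjusted p under 0.05, where 0.0919% and 0.023% of all genes were higher and 0.414% and 0.184% lower. At 12 h Ndufa10 (−0.54) and Ndufv2 (−0.57), both of complex I, were lower at 30 °C, against 3.29% of all genes lower and 0.977% higher, and each call was lost without some single library. Most differences at 12 h and 4 h were below 0. At 12 h 65 of 76 were, with a median of −0.28 beside −0.01 for all genes and 18 at an unadjusted p under 0.05. The libraries of the temperatures did not overlap, with 30 °C lower, for 10 members at 12 h, against 5.31% of all genes. At 4 h 62 of 76 were below 0 (median −0.21 beside 0.04), and at 0 h 47 were (−0.05 beside 0.01). These include the libraries that stood apart, 30 °C 4 h replicate 4 (−0.40 in mean log2 level) and 30 °C 0 h replicate 3 (−0.53). The other 30 °C 4 h libraries lay between −0.12 and 0.04, and those at 22 °C 4 h between −0.0044 and 0.15. The members' share of all signal at 12 h was 1.51% at 30 °C and 1.47% at 22 °C. At 24 h 29 members were higher at 30 °C and 0 lower, where 9.93% of all genes were higher and 8.71% lower. The median difference was 0.42 (34.0%) beside −0.03 for all genes, and 72 of the 76 differences were above 0. Of the 29 calls, 19 were kept in every alternative tried. The 24 h libraries of the temperatures did not overlap for 20 members, all higher at 30 °C, against 5.62% of all genes.

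The change since 0 h itself differed between the temperatures for 16 members at 24 h, all more positive at 30 °C, where 5.07% of all genes were more positive and 3.88% more negative. The median of this interaction was 0.52, beside −0.04 for all genes. For Sdhd, Ndufa6, Atp5c1, Ndufb3, Ndufc1, Atp5j2, Atp5k and Uqcrh the interaction passed in every alternative. Without the 30 °C 0 h replicate 3 the count was 9, and Ndufs7 (1.02, adjusted p = 0.0669) was among those lost. Leaving out 30 °C 24 h replicate 5 or 22 °C 24 h replicate 3 left 8, 22 °C 0 h replicate 4 left 9, and 22 °C 0 h replicate 1 left 10. At 4 h the interaction passed for 0 of 76 members by limma (1 at an unadjusted p under 0.05), against 0% of all genes more positive and 0.0115% more negative.

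**Figure D3:**
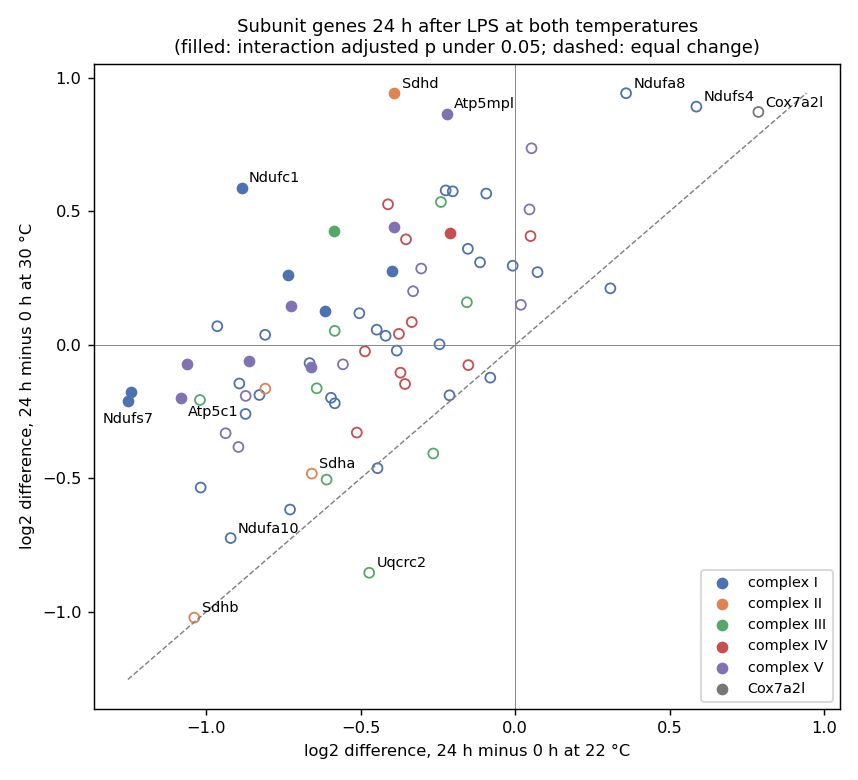
Log2 difference of each tested member between 24 h and 0 h at 30 °C (vertical axis) against that at 22 °C (horizontal axis). Points are genes coloured by complex, filled where the interaction had an adjusted p under 0.05, and the dashed line marks equal change. 71 of 76 points lie above the dashed line, Sdhb lies close to it and Uqcrc2 below it.

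Ndufs7 also had the largest temperature difference of complex I at 24 h. Its signal was 14.4, 19.0, 20.3, 24.3 and 18.1 at 22 °C and 41.3, 40.2, 57.9, 32.5 and 47.6 at 30 °C. Every 30 °C library was above every 22 °C library, with a log2 difference of 1.15 ± 0.23 (adjusted p = 0.000452). Against 0 h it was −1.25 at 22 °C (adjusted p = 9.21e-05) and −0.21 at 30 °C (adjusted p = 0.534).

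Ndufc1 (chr3:51404677-51408988), a small accessory subunit of complex I, had the largest interaction. Its signal at 22 °C was 278, 293, 168 and 224 at 0 h and 113, 142, 87.2, 135 and 174 at 24 h. At 30 °C it was 202, 247, 92.7, 206 and 205 at 0 h and 216, 283, 280, 264 and 338 at 24 h. At 24 h all 30 °C libraries were above all 22 °C libraries. The interaction was 1.47 ± 0.32 (adjusted p = 0.00277), and the 24 h difference between the temperatures was 1.10 ± 0.22 (adjusted p = 0.000412). Its rise over 0 h at 30 °C (0.59, adjusted p = 0.0389) was lost without the 30 °C 0 h replicate 3 (0.35, adjusted p = 0.206).

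Atp5c1 (chr2:10056016-10080510) gave the largest temperature difference of complex V. At 22 °C its signal went from 1359, 1005, 1015 and 1398 at 0 h to 457, 529, 460, 680 and 705 at 24 h. At 30 °C it went from 1330, 1236, 887, 1211 and 1197 to 531, 601, 697 and 612 at 12 h and 1058, 950, 1128, 878 and 1072 at 24 h. The fall at 22 °C was −1.08 (a fall by 52.6% in mean signal, adjusted p = 2.15e-07), and the 24 h difference between the temperatures was 0.86 ± 0.14 (adjusted p = 2.01e-05). The interaction was 0.89 ± 0.20 (adjusted p = 0.00369). In its last 300 bases 16.6% of the 31-base stretches are shared with another gene.

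By complex, the 29 members higher at 30 °C at 24 h were 14 of 35 in complex I (median 0.42, all 35 differences above 0), 1 of 4 in complex II (0.35), 2 of 9 in complex III (0.36), 2 of 11 in complex IV (0.35) and 10 of 16 in complex V (0.58). Of all genes 9.93% were higher. The small counts in complexes II, III and IV are not read as a difference from that share. Inside complex V they were 4 of 5 genes of the catalytic head and central stalk (0.58), 4 of 4 of the peripheral stalk (0.65), 2 of 4 small membrane subunits (0.58) and 0 of 3 c-subunit genes (0.14). The largest differences past the threshold elsewhere were Sdhc (0.50), Uqcrh (0.59), the hinge protein of complex III, and Cox7b (0.68). In complex II Sdhd differed by more than Sdhc but missed the threshold. Among the 53 members that share under 10% of their 31-base stretches with other genes, 17 were higher at 30 °C and 0 lower.

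Complex II, the smallest, also called succinate dehydrogenase, did not move as a unit at 24 h. Sdhb was at 128, 139, 121, 132 and 110 at 0 h at 30 °C and at 78.3, 57.1, 53.6, 39.3 and 92.5 at 24 h (−1.02 ± 0.18, adjusted p = 2.74e-05). At 22 °C it was at 103, 95.9, 96.6 and 169 at 0 h and at 55.9, 54.1, 52.6, 52.5 and 56.9 at 24 h (−1.04, adjusted p = 3.37e-05). All 24 h libraries were below all 0 h libraries of the same temperature, and the interaction was 0.02 (adjusted p = 0.979).

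Sdhd, which anchors the enzyme in the membrane, rose from 0 h to 24 h at 30 °C. Its signal was 43.7, 58.3, 16.8, 30.4 and 38.9 at 0 h and 74.1, 54.7, 91.3, 64.2 and 60.8 at 24 h, overlapping in a single library of each group (0.94 ± 0.23, adjusted p = 0.00159). At 22 °C it was 57.9, 49.6, 64.8 and 60.9 at 0 h and 54.8, 32.0, 36.2, 49.3 and 52.8 at 24 h (−0.39, adjusted p = 0.212). The interaction was 1.33 ± 0.33 (adjusted p = 0.00843). At 0 h most 30 °C libraries lay below those at 22 °C, and this gap also enters the interaction. By limma neither the 0 h nor the 24 h difference between the temperatures passed the threshold for Sdhd. Sdha, the catalytic flavoprotein, had −0.66 at 22 °C and −0.48 (adjusted p = 0.0247) at 30 °C, the latter call being lost with upper-quartile scaling, with the groups fitted alone and without either of 2 libraries. Sdhc, the other anchor, had −0.81 at 22 °C and −0.16 (adjusted p = 0.471) at 30 °C.

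Besides Sdhb, a few members were still low at 24 h at 30 °C. All 6 members lower there were lower at 22 °C too, which is 15.8% of the 38 lower at 22 °C. Uqcrc2 (chr7:120635176-120659524), a core protein of complex III, had a signal of 110, 151, 123, 153 and 105 at 0 h and 73.6, 72.6, 49.9, 68.5 and 90.4 at 24 h, without overlap (−0.85 ± 0.17, adjusted p = 0.000265). Ndufa10, an accessory subunit of complex I, had 83.3, 98.5, 103, 71.8 and 86.1 at 0 h and 54.6, 56.5, 50.1, 52.5 and 50.5 at 24 h, also without overlap (−0.72 ± 0.13, adjusted p = 3.74e-05). The others were Sdha, Ndufb5 (−0.62) and Uqcrb (−0.50), a small subunit of complex III.

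Several members stood above their 0 h level at 24 h at 30 °C. Ndufs4 (chr13:114287795-114388258), a late-joining accessory subunit of complex I, had 73.7, 45.6, 28.6, 57.2 and 62.7 at 0 h and 92.1, 96.3, 88.4, 97.7 and 105 at 24 h, without overlap (0.89 ± 0.21, adjusted p = 0.00107). At 22 °C its difference was 0.59 ± 0.22 (adjusted p = 0.0333), a call that 5 of the left-out libraries and 3 other alternatives ended. Ndufa8, another accessory subunit, had 145, 234, 204, 202 and 241 at 0 h and 308, 520, 330, 510 and 332 at 24 h, without overlap (0.94 ± 0.20, adjusted p = 0.000497).

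Atp5g3 reached 991, 1210, 1224, 1227 and 1488 at 24 h at 30 °C, against its 0 h values of 345 to 1002 given above. The difference was 0.74 ± 0.18 (adjusted p = 0.00218), and it held without the 0 h library at 345. At 22 °C at 24 h it had 959, 1170, 971, 1225 and 1107 (0.05, adjusted p = 0.863), and the interaction was 0.68 (adjusted p = 0.106). Atp5mpl, a small membrane subunit of ATP synthase, rose by 0.87. With Sdhd, Cox7a2l and these, 6 rises and the falls of Sdhb, Ndufa10 and Uqcrc2 were kept in every alternative.

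**Figure D4:**
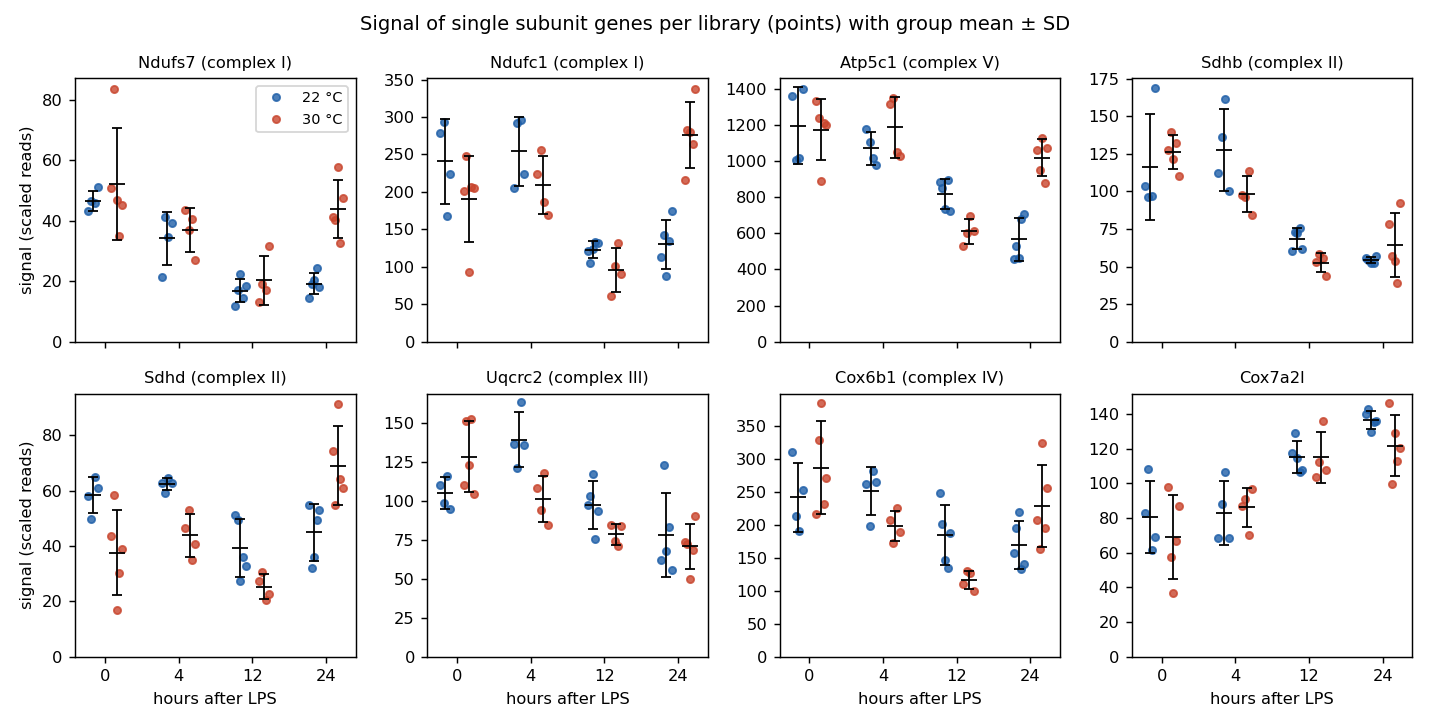
Signal of 8 subunit genes (vertical axis, scaled reads) against hours after LPS (horizontal axis) in each library. Points are libraries, bars the group mean ± SD, blue is 22 °C and red is 30 °C. Ndufs7, Ndufc1 and Atp5c1 are low at 24 h at 22 °C. At 30 °C Ndufs7 and Atp5c1 are near their 0 h level at 24 h, and Ndufc1 is mostly above it. Sdhb and Uqcrc2 are low at 24 h at 30 °C as well, and Cox7a2l is high at 24 h at both temperatures.

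The 18 subunits followed whatever their values, which include the catalytic subunits and the general forms of complex IV subunits, gave the following counts. At 12 h 7 were lower at 22 °C and 11 at 30 °C, with 0 higher by limma, where 20.6% and 18.9% of all genes were lower. At 24 h 7 were lower and 0 higher at 22 °C, where 18% of all genes were lower. At 30 °C 2 were lower and 2 higher, close to the 14.4% and 15.3% of all genes. Between 12 h and 24 h at 30 °C 8 rose and 0 fell, where 11.6% of all genes rose. At 24 h 3 were higher at 30 °C than at 22 °C and 0 lower, where 9.93% of all genes were higher. Atp5a1, the alpha subunit of the catalytic head, missed the threshold at 12 h at both temperatures (−0.20 and −0.32) and at 24 h at 22 °C (0.05). At 24 h at 30 °C it was higher (0.51, adjusted p = 0.0105), a call lost with the groups alone and without the 30 °C 0 h replicate 3 (0.37, adjusted p = 0.0583). Without that library its 12 h difference at 30 °C passed the test (−0.45, adjusted p = 0.0205).

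The 13 subunits encoded by mitochondrial DNA took 14.3% of all signal at 22 °C 0 h and 16.8% at 30 °C 0 h. Their share was 10.2% and 9.19% at 12 h and 8.30% and 8.68% at 24 h, at 22 °C and 30 °C. They fell at both temperatures, with 8 of 13 lower at 24 h at 22 °C (median −0.85) and 9 of 13 at 30 °C (−0.72), and 0 higher at either. Of all genes 18% were lower and 19% higher at 22 °C, and 14.4% and 15.3% at 30 °C. The temperatures differed at 24 h for 1 of the 13 (mt-Co3, 0.48), beside 29 of 76 nuclear-encoded subunits. Of all genes 9.93% were higher at 30 °C and 8.71% lower. Whether the nuclear and mitochondrial sets differ in this was not tested.

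For the factors that assemble the complexes and the lists that follow, the counts are read against all genes. At 12 h 20.6% of these were lower and 20.7% higher at 22 °C, and 18.9% and 19.3% at 30 °C. At 24 h 18% were lower and 19% higher at 22 °C and 14.4% and 15.3% at 30 °C, and 9.93% were higher and 8.71% lower at 30 °C than at 22 °C. Of 13 tested assembly factors of complex I, 5 were lower and 0 higher at 12 h at 22 °C, and 3 were lower and 2 higher at 30 °C. Timmdc1, which helps to build the membrane arm, had −1.83 and −1.71 at 12 h and was higher at 30 °C at 24 h by 1.27 (adjusted p = 0.000818). Of 22 factors of complex IV, 4 were lower and 2 higher at 12 h at 22 °C and 6 lower and 1 higher at 30 °C, with Cox20 at −1.53 and −1.28. Cox17, a copper chaperone, was higher at 24 h at 22 °C (0.46) and 30 °C (0.70). Of 5 factors of ATP synthase 2 were lower at each temperature at 12 h, among them Fmc1 (−1.47 and −1.24), and of 9 factors of complexes II and III 4 were lower at 22 °C and 2 at 30 °C.

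Carriers that link the complexes were next examined. Of 21 tested electron, nucleotide and phosphate carriers, 8 were higher and 3 lower at 24 h than at 0 h at 30 °C (median 0.34), and 2 were higher and 7 lower at 22 °C. Cytochrome c (Cycs) was higher by 1.23 at 30 °C (adjusted p = 1.28e-09). Etfa and Etfb, which pass electrons from fatty acid oxidation, were higher at 30 °C than at 22 °C by 0.61 and 0.88, and the ADP/ATP carrier Slc25a5 by 0.73. Coq8a, needed to make ubiquinone, was lower at 12 h, with −3.42 at the lower temperature and −3.96 at the higher. Of 17 genes of the tricarboxylic acid cycle, 6 were lower and 2 higher at 12 h at 22 °C and 7 lower and 2 higher at 30 °C. Mdh2 (0.86) and Ogdh (0.97) were higher at 30 °C than at 22 °C at 24 h.

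Genes of the mitochondrial ribosome were called no more often at 12 h than all genes. Of 46 tested genes of the large subunit, 8 were lower and 3 higher at 12 h at 22 °C, 5 lower and 2 higher at 30 °C, and 6 were higher and 1 lower at 30 °C than at 22 °C at 24 h, near the share of all genes. Of 27 of the small subunit, 3 were lower and 2 higher at 22 °C and 3 lower and 3 higher at 30 °C at 12 h. Among 12 transcriptional regulators of mitochondrial genes, Gabpa, the DNA-binding part of GABP, was higher at 12 h (1.29 at 22 °C and 1.09 at 30 °C), and Ppargc1b, a coactivator of them, was lower at 12 h (−2.06 at 22 °C) and 24 h (−1.99 at 22 °C and −1.52 at 30 °C). At 24 h 0 of the 12 differed between the temperatures by limma, and 3 had an unadjusted p under 0.05. Of 6 genes of the hypoxia response or that replace subunits in it, 3 were higher and 0 lower at 12 h at 22 °C and 3 higher and 1 lower at 30 °C. Hif1a, which acts in the response to low oxygen, was higher at 12 h by 2.60 and 2.64 and differed by −1.35 between 30 °C and 22 °C at 24 h.

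**Figure D5:**
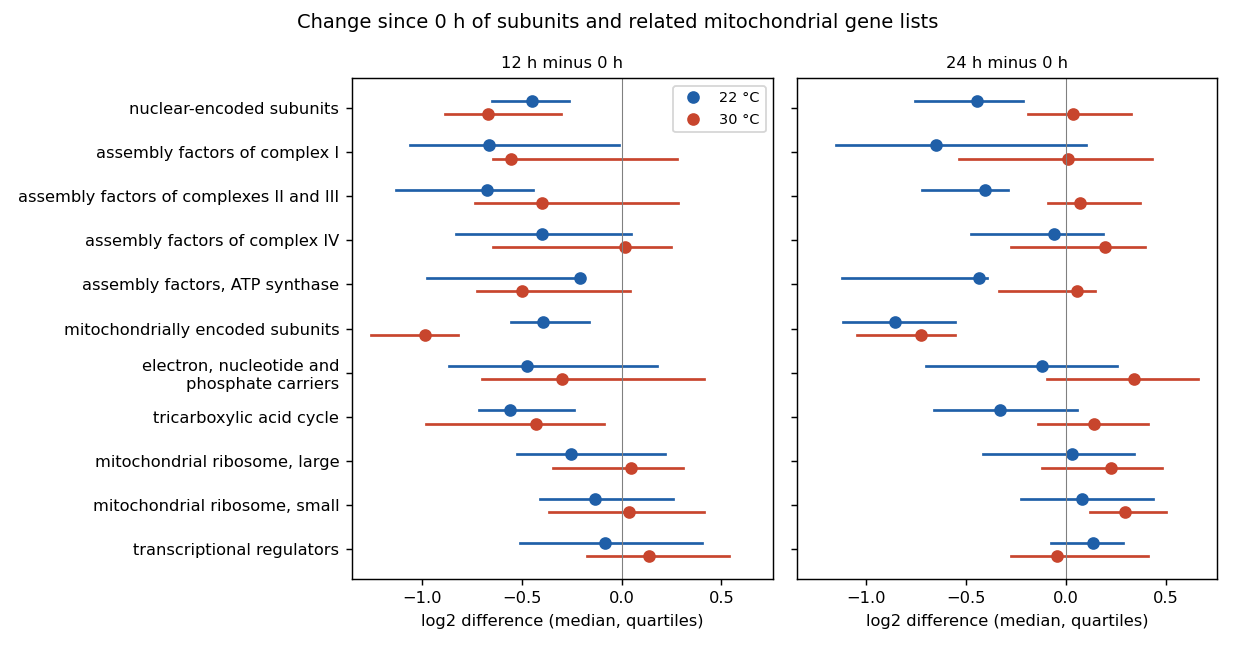
Median log2 difference from 0 h (points) with the quartiles (lines) for the nuclear-encoded subunits and 10 related lists (vertical axis), at 12 h and at 24 h, in blue for 22 °C and red for 30 °C. The subunits sit at −0.45 and −0.67 at 12 h and at −0.45 and 0.04 at 24 h, and the mitochondrially encoded subunits at −0.85 and −0.72 at 24 h.

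Markers of cell types moved beside these genes. Of 10 hepatocyte markers, 7 were lower and 1 higher at 12 h and at 24 h at 22 °C, and at 30 °C 8 were lower and 1 higher at 12 h and 6 lower and 2 higher at 24 h. Their summed signal ran from 33911 to 44819 at 22 °C 0 h, from 17754 to 28531 at 12 h and from 16291 to 22023 at 24 h. At 30 °C it ran from 30039 to 48230 at 0 h, from 13973 to 17661 at 12 h and from 15519 to 25010 at 24 h. Ttr, with the highest mean signal of these markers (12901), weighs most in this sum. At 24 h 3 hepatocyte markers were higher at 30 °C than at 22 °C and 0 lower, as were 5 of 8 endothelial markers (summed signal 146 to 200.3 at 22 °C and 185 to 311 at 30 °C). Neutrophil and monocyte markers summed to 177 to 368 at 22 °C and 304 to 475 at 30 °C, with 1 of 6 higher. Of 4 erythroid markers 2 were lower at 30 °C (482 to 1267 against 262 to 626). In the other lists 1 of 9 Kupffer cell and 2 of 6 stellate markers were higher at 30 °C, and 0 of 1 lymphocyte and 0 of 2 cholangiocyte markers differed by limma. The part of these cell types in the differences of the members was not tested.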

How the data were processed

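The deposited values came from bulk liver RNA profiled with CEL-Seq2 in modified form (per the labels' protocols), with reads handled by Trimmomatic, kallisto and sleuth, per the submitters' processing notes. Their versions, the index, the genome build and UMI collapsing were not found there. The authors deposited a signal column that they named scaled reads per base, used here for every test, and another named TPM, used as per-length signal for levels between genes. From the values, the first is not per base. Its 8278 values worth 1 read (tolerance 0.01 read) came from transcripts of 391 to 4062 bases (10th to 90th percentile). For transcripts under 1000 bases these had a median of 1.782 in the second column, against 0.217 for those over 3000. Library sums of the second column ran from 757040 to 1746038, so it is not plain TPM. All 36 samples were tied to their rows, and 0 columns were left over.

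Genes were named with GENCODE M21, which matched 34406 of the 34829 identifiers. All tests used the limma package (3.58.1, under R 4.3.3; lmFit, eBayes with trend, two-sided) on log2(signal + 1) with 8 group means, in 17 contrasts. A fold on this scale understates the change of low genes. Adjusted p-values are Benjamini-Hochberg over 8702 genes in each contrast, with a threshold of 0.05, and errors on log2 differences are SE. The test was checked on simulated data with independent noise for each gene and library. Libraries in which members are low together, like the pair that stood apart, were not simulated. Python 3.11.15, pandas 2.3.3 and matplotlib 3.10.9 made the summaries. Depth limits come from 3 reads per library and cover counting error only. Comparisons with the same 0 h libraries share their controls.

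The members and lists were chosen with earlier results of these data known. Genes were named by rule: in each contrast and complex the largest fall and rise past the threshold, 18 subunits in every contrast, isoforms by level, and up to 3 genes of smallest p in other lists. The printed promoters, and Ndufa6, Ndufa10, Ndufc1, Ndufs4 and Uqcrc2 in contrasts outside the rule, were chosen after their values were seen. Alternatives were a pseudocount of 0.25, no filter, the second column, upper-quartile and median-ratio scaling, a replicate block, the groups alone, each library left out, and, added after seeing the data, both libraries that stood apart left out and a block on the replicate numbers of the descriptions.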

Additional observations from a re-analysis of the deposited data

Results flagged for a closer look

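Single libraries stood apart from the others of their group in 4 of 96 sets of values, made of 12 genes in 8 groups, where chance alone gives about 1 in 20. Sdhb was high in the 22 °C 0 h replicate 4 (signal 168.615). Cox5b (89.785) and Atp5g3 (345.353) were low in the 30 °C 0 h replicate 3, a library in which the members were low together. Atp5g3 was low in the 22 °C 4 h replicate 4 (1046.936).

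The change from 0 h to 24 h differed between 30 °C and 22 °C, by the interaction term of the limma fit, for 16 members, all more positive at 30 °C. In complex I these were Ndufc1 (log2 1.4746), Ndufa6 (1.0651), Ndufs7 (1.0437), Ndufb3 (0.9999), Ndufv2 (0.7415) and Ndufa12 (0.676). In complexes II, III and IV they were Sdhd (1.3344), Uqcrh (1.0129) and Cox5b (0.6318). In complex V they were Atp5mpl (1.0868), Atp5k (0.9911), Atp5c1 (0.8859), Atp5j2 (0.8716), Atp5f1 (0.8312), Atp5o (0.8012) and Atp5b (0.576). The calls of Atp5f1, Atp5mpl, Atp5o, Cox5b, Ndufa12, Ndufs7 and Ndufv2 were lost without the 30 °C 0 h replicate 3.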

How the results depend on the processing

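Counts of members called at 12 h and 24 h at 22 °C, at 12 h at 30 °C, between the temperatures at 24 h, and from 12 h to 24 h at 30 °C stayed within 1.5 times of the value reported under every alternative, and no called difference of a named gene changed sign. Other counts moved, and the cause was not tested. At 4 h at 22 °C (2 reported) there was 1 call without the filter and 1 with upper-quartile scaling. At 4 h at 30 °C (6) there were 3 without the filter, 11 with upper-quartile scaling, 2 with the groups alone and 2 without both libraries that stood apart. At 24 h at 30 °C (19) there were 10 with the groups alone and 12 without both libraries. Between the temperatures at 12 h (2) there were 0 with upper-quartile scaling and 0 with the groups alone. For the interaction at 24 h (16) there were 9 without the filter and 8 with the groups alone. From 4 h to 12 h upper-quartile scaling gave 27 at 22 °C (41) and 22 at 30 °C (47), and from 12 h to 24 h at 22 °C (4) it gave 2 and the groups alone gave 1. Upper-quartile scaling set the median of all genes to −0.20 at 4 h at 22 °C (−0.10 reported), −0.17 at 4 h at 30 °C (−0.04), 0.11 at 12 h at 30 °C (0.01) and 0.21 from 4 h to 12 h at 30 °C.

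With each library left out in turn, the counts ran from 0 to 2 and from 3 to 7 at 4 h at 22 °C and 30 °C, from 29 to 39 and from 44 to 56 at 12 h, and from 32 to 40 and from 12 to 20 at 24 h. Between the temperatures they ran from 1 to 5 at 12 h and from 20 to 31 at 24 h, and for the interaction at 24 h from 8 to 20. From 4 h to 12 h they ran from 34 to 44 at 22 °C and from 38 to 53 at 30 °C, and from 12 h to 24 h from 2 to 4 at 22 °C and from 46 to 51 at 30 °C. At 4 h at 22 °C the count was 0 without 0 h replicate 1, and 1 without 0 h replicate 3 or 4 h replicate 2. At 4 h at 30 °C it was 3 without 0 h replicate 2 or without 4 h replicate 3 or 4. Between the temperatures at 12 h it was 5 without 22 °C replicate 5, and 1 without 22 °C replicate 1, 2 or 3 or any 30 °C replicate. From 12 h to 24 h at 22 °C it was 2 without 12 h replicate 1 or 2 or 24 h replicate 3. Of 219 calls of named genes, 132 were kept in every alternative.

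Replicate numbers, taken from the titles, did not pair the samples: deviations of same-numbered libraries had a median correlation of −0.000568 (from −0.125 to 0.110), and 10 of 36 libraries correlated best with their own number. With the replicate block the counts were 42 and 47 at 12 h at 22 °C and 30 °C, 40 and 18 at 24 h, and 29 between the temperatures at 24 h. The descriptions number 2 of the 30 °C 12 h libraries differently. With those numbers, tried after seeing the data, the correlation was 0.00395 (from −0.125 to 0.110), 9 libraries correlated best with their own number, and the block gave 42 and 52 at 12 h. In a library of median depth 3 reads, the limit that a count of 0 allows, correspond to a signal of 3.29. This limit holds for a single library and does not say which differences between groups could be detected.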
